A study of Homo sapiens with 6 samples.

Results

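The genes described here are 87 protein-coding genes for chromatin remodellers and histone- or DNA-modifying enzymes, out of 14812 genes tested, measured in C4-2 prostate cancer cells after chemical inhibition or siRNA depletion of DNA-PKcs. They were chosen by gene symbol alone, as members of the ARID, BRD, CHD, DNMT, EZH, HDAC, KAT, KDM, KMT, PBRM, SETD, SIRT, SUZ and TET series, with the brightest probeset standing for each gene. The symbol pattern matched 123 protein-coding genes in the reference gene table, and 36 of those, among them all SMARC genes, ARID2, BRD9, EED, KMT2A and SETDB1, had no named probeset and are not analysed here. For 3 members, HDAC2, HDAC4 and TET1, more than 1 probeset was named. Of the 87 members, 70 were at or above the median brightness of all genes.

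Chromatin remodellers use ATP to slide, evict or exchange nucleosomes. SWI/SNF complexes do this at promoters and enhancers, and the CHD motors include the engine of the repressive NuRD complex. Writers add acetyl or methyl groups to histone tails, erasers such as the HDAC, SIRT and KDM enzymes remove them, and readers such as the bromodomain proteins bind acetylated tails. In prostate cancer several of these proteins, among them EZH2 and KDM1A, are known as coregulators of androgen receptor transcription.

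C4-2, an established human line of castration-resistant prostate cancer, descends from LNCaP cells, and all cultures were kept in medium with hormones. The NU7441 group was given this inhibitor of the DNA-PKcs kinase at 1 µM for 24 h, the knockdown group received siRNAs pooled against PRKDC, the DNA-PKcs gene, for a transient depletion over 96 h, and the control group is labelled as DMSO treated. Each group had 2 arrays labelled as biological replicates of this single line, and p-values measure only the spread between those arrays. The protocol also names a control siRNA pool, but the label of the control arrays gives DMSO alone, so depletion, transfection and the longer time cannot be told apart in the comparison of knockdown with control. PRKDC had no named probeset, so the extent of its depletion was not analysed here.

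Every array carried the luminal prostate profile of the line. The 6 measured luminal markers of 11 listed lay between 81.8 and 1213 intensity units on every array, with KLK3, the gene for PSA, among them. Their summed intensity was 2638 and 2793 in NU7441 arrays, 2180 and 2208 in knockdown arrays, and 2231 and 2327 in control arrays. Their median went the other way, with 310 and 343 in NU7441 arrays, 381 and 403 in knockdown arrays, and 410 and 385 in control arrays. Under NU7441 4 of the 6 had a log2 fold change above 0 against control, and KLK2 (-0.44) and KRT18 (-0.13) had one below 0. The measured basal, neuroendocrine, fibroblast and endothelial markers stayed at or under 63.2 throughout, and the highest leukocyte marker value was 159.6. Values are linear intensities with a lowest value of 16. NU7441 replicate 1 had 3797 probesets within 0.01 of that floor and NU7441 replicate 2 had 1471, against 973 and 1206 in knockdown arrays and 452 and 444 in control arrays. The median SD of log2 intensity among the members was 0.23 in NU7441 arrays, 0.13 in knockdown arrays and 0.10 in control arrays. In RNA from whole cultures, fewer cells with a transcript and less of it per cell cannot be told apart.

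NU7441 moved chromatin genes in both directions, while after PRKDC knockdown BRD7 was the member past the threshold. Under NU7441, 22 members rose, 13 fell and 52 did not pass the test (limma over all 6 arrays, adjusted p under 0.05 over all genes). Over all genes tested, 10.8% rose and 22.4% fell, against 25.3% and 14.9% of the members. Of the 70 members at or above the median brightness 31.4% rose and 14.3% fell, against 20.7% and 24% of all genes that bright. The median log2 fold change under NU7441 was 0.21 over the members and -0.23 over all genes. After knockdown 0 members rose and 1 fell, against 0.284% and 0.486% of all genes, and the medians were 0.05 over the members and -0.09 over all genes. At an unadjusted p under 0.05, 27 members were higher and 16 lower under NU7441, against 14.6% and 31.3% of all genes. At the same limit 5 members were higher and 11 lower after knockdown, against 6.68% and 12.9% of all genes. Both NU7441 arrays lay above both control arrays in 41 members and below both in 25, against 22.7% and 47.3% of all genes, and both knockdown arrays lay above in 27 and below in 24, against 23.4% and 38.2%. Both comparisons use the same control arrays, so their values are given side by side and no likeness between them is counted.

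**Figure D1:**
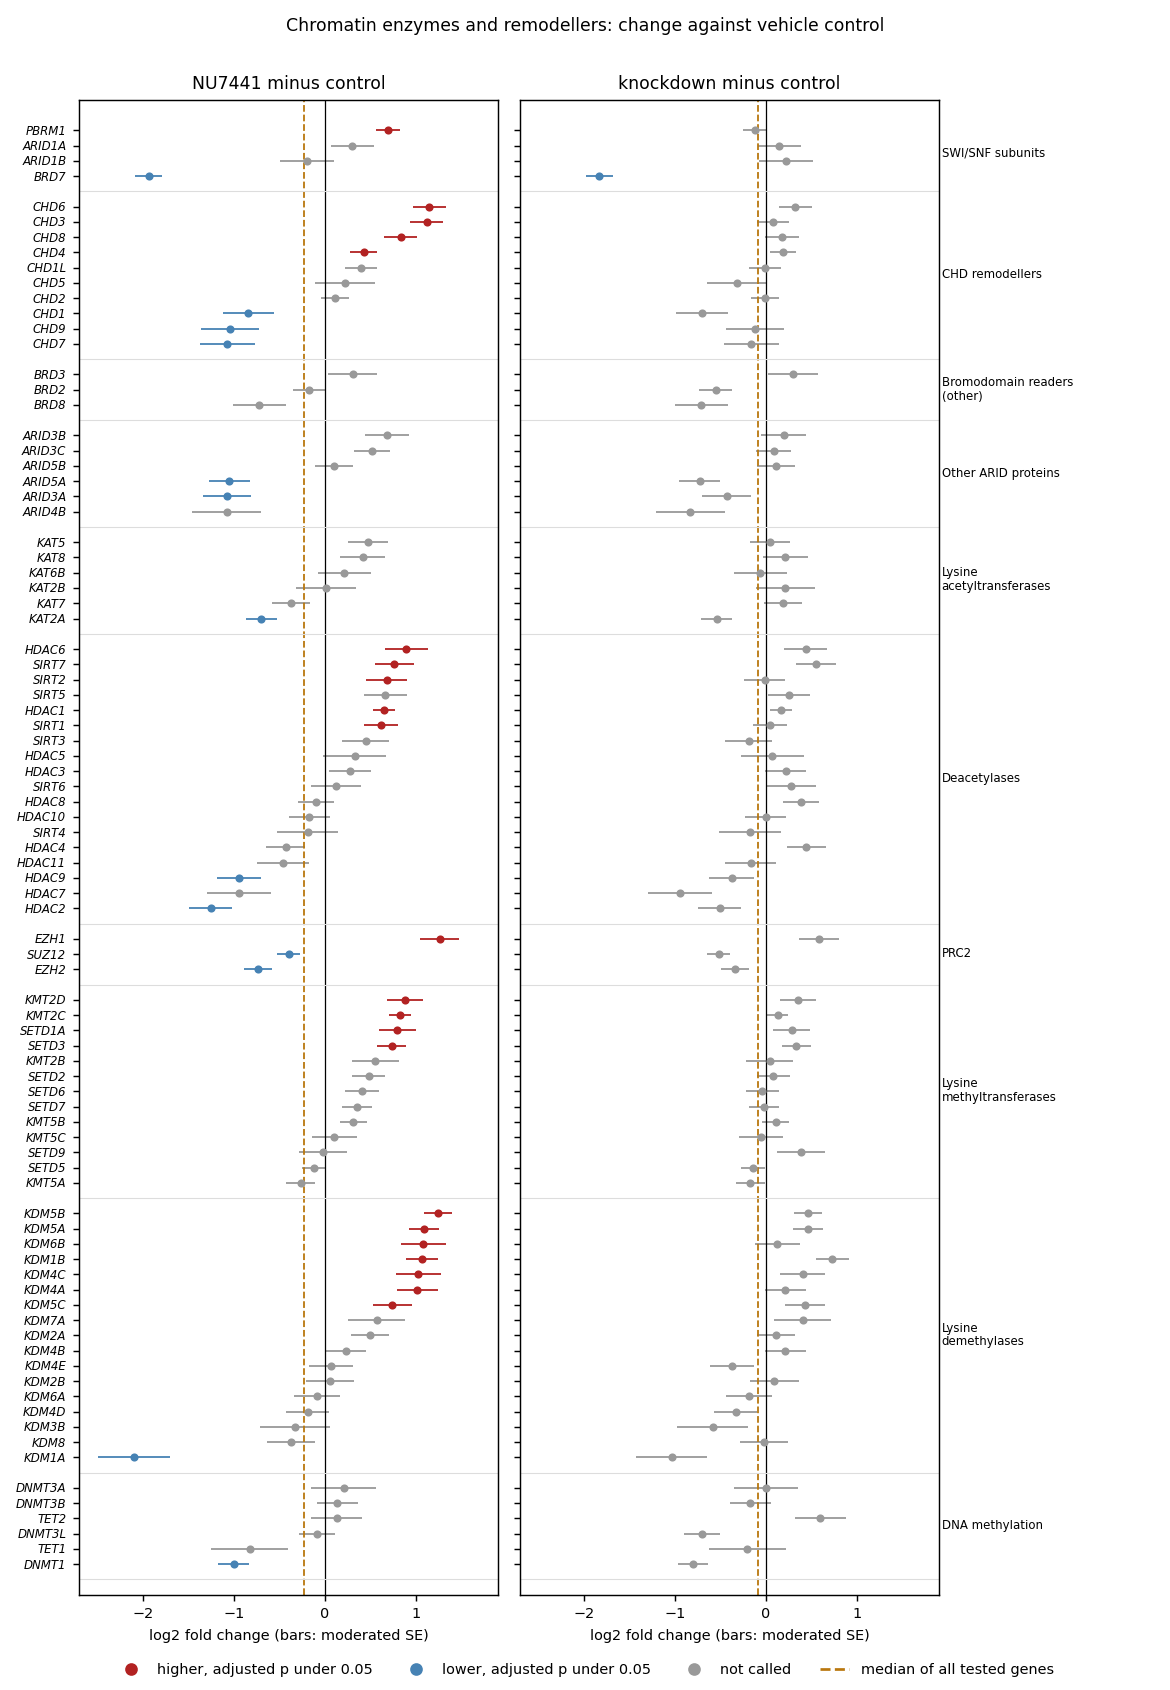
Log2 fold change of each member against control (horizontal axis), NU7441 on the left and knockdown on the right, with limma's moderated standard error as bars and members grouped by role. Red and blue points are members past the threshold, and the dashed line is the median of all genes; 22 red and 13 blue points stand on the left and 1 blue point, BRD7, on the right (1 Y-linked member is counted but not drawn).

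The SWI/SNF members split, with BRD7 low in both treatments and PBRM1 high under NU7441. BRD7 is a bromodomain subunit of PBAF, the form of SWI/SNF that also holds PBRM1. BRD7 had 142 and 159 intensity units in NU7441 arrays, 161 and 162 in knockdown arrays, and 584 and 562 in control arrays. All 4 treated arrays lay far below both control arrays, and the treated arrays of the 2 groups differed little. BRD7 fell 3.82-fold under NU7441 (log2 fold change -1.94 ± 0.15, adjusted p = 0.00022) and 3.55-fold after knockdown (-1.83 ± 0.15, 95% interval -2.158 to -1.498, adjusted p = 0.00183). Among all 14812 genes BRD7 had the 6th lowest log2 fold change after knockdown and the 118th lowest under NU7441. Set directly against NU7441, knockdown differed by 0.11 ± 0.15 on the log2 scale (95% interval -0.22 to 0.44, adjusted p = 0.669). The knockdown call was lost when any 1 knockdown or control array was left out, fits in which hardly any of all genes passed. The knockdown log2 fold change stayed between -1.93 and -1.68 over all alternatives, and the NU7441 call held in all 14.

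PBRM1, the subunit with multiple bromodomains that defines PBAF, moved the other way from BRD7 under NU7441. It had 487 and 474 intensity units in NU7441 arrays, 287 and 260.2 in knockdown arrays, and 314 and 281 in control arrays. Both NU7441 arrays lay above the other 4, and the knockdown and control arrays overlapped. PBRM1 rose under NU7441 (0.69 ± 0.13, adjusted p = 0.0058), while knockdown against control gave -0.12 ± 0.13 (95% interval -0.42 to 0.18, adjusted p = 0.660). The difference between the treatments was itself past the threshold, with knockdown minus NU7441 at -0.81 ± 0.13 (adjusted p = 0.0098). That call was lost without knockdown replicate 1 (-0.88, adjusted p = 0.139) and without knockdown replicate 2 (-0.74, adjusted p = 0.134).

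ARID1A and ARID1B, alternative subunits of the BAF form of SWI/SNF, passed in neither comparison. ARID1A had 83.0 and 64.1 intensity units in NU7441 arrays, 63.2 and 68.1 in knockdown arrays, and 55.4 and 63.3 in control arrays. ARID1B had 56.7 and 35.7 in NU7441 arrays, 51.3 and 70.0 in knockdown arrays, and 47.9 and 55.5 in control arrays. For both genes the arrays of the groups lay close together or overlapped, and the fold changes after knockdown were 0.15 ± 0.24 for ARID1A and 0.22 ± 0.29 for ARID1B.

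Of the BRD genes measured outside SWI/SNF, namely BRD2, BRD3 and BRD8, none passed the test in either comparison with control. BRD2, a BET protein that binds acetylated histone H4, had 257 and 358 intensity units in NU7441 arrays, 247 and 221 in knockdown arrays, and 356 and 330.2 in control arrays. Both knockdown arrays lay below both control arrays (-0.55 ± 0.18, adjusted p = 0.141), and the NU7441 arrays straddled the control arrays. BRD8, a subunit of the TIP60 acetyltransferase complex, had 57.8 and 112 in NU7441 arrays, 81.8 and 80.4 in knockdown arrays, and 131 and 134 in control arrays, and all 4 treated arrays lay below the control arrays. Its fold change was -0.72 ± 0.29 under NU7441 (adjusted p = 0.0854) and -0.71 ± 0.29 after knockdown (adjusted p = 0.225). BRD3, the other BET gene measured, lay between 52.8 and 87.1 on all arrays, with the groups overlapping.

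Counted by domain, 7 members carry a bromodomain, namely BRD2, BRD3, BRD7, BRD8, PBRM1 and the acetyltransferases KAT2A and KAT2B. Under NU7441 1 of these rose and 2 fell, 14.3% and 28.6% against 10.8% and 22.4% of all genes. After knockdown 0 rose and 1 fell, against 0.284% and 0.486% of all genes. KAT2A, the catalytic subunit of the SAGA complex, was the other bromodomain gene that fell, with 141 and 149 intensity units in NU7441 arrays, 147 and 178 in knockdown arrays, and 242 and 229 in control arrays. All treated arrays lay below the controls (-0.70 ± 0.17, adjusted p = 0.0154 under NU7441; -0.54 after knockdown, not called). The NU7441 call was lost when arrays were centred on their medians (-0.38). KAT2B, the paralog of KAT2A, overlapped between groups (0.01 ± 0.33 under NU7441).

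**Figure D2:**
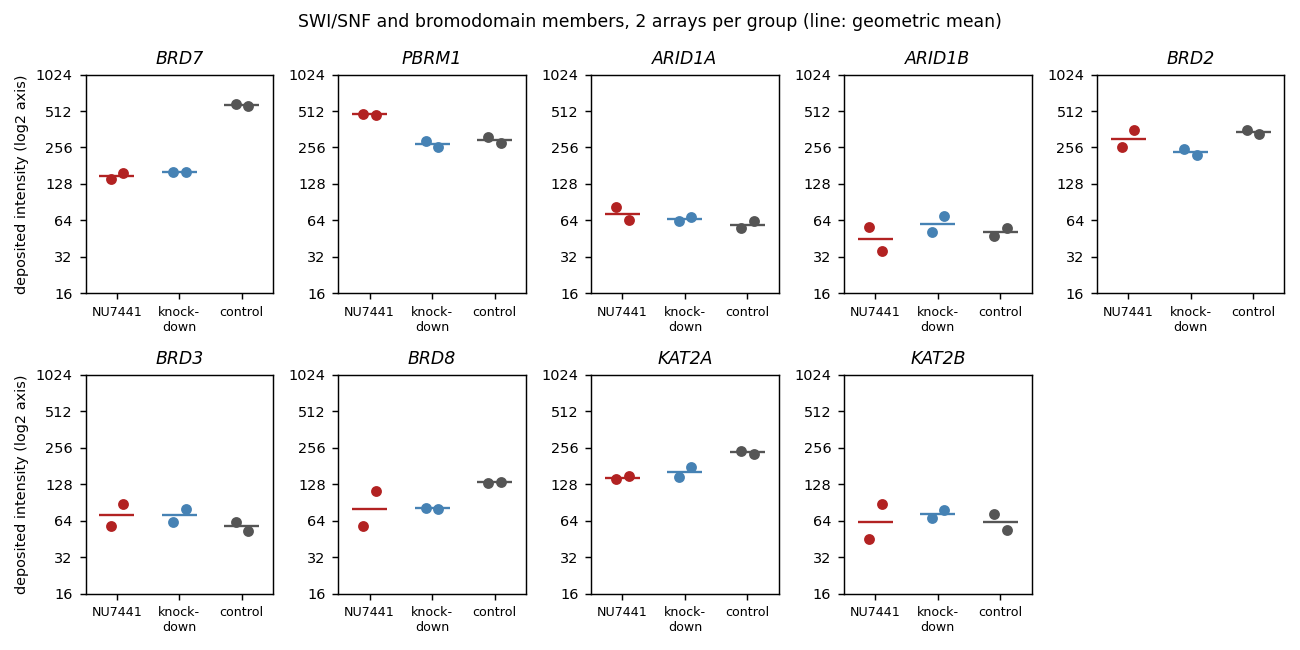
Deposited intensity (vertical log2 axis) of the SWI/SNF and bromodomain members on each of the 2 arrays of the NU7441, knockdown and control groups, with the geometric mean as a line. BRD7 stands between 142 and 162 in all 4 treated arrays, below 584 and 562 in control arrays, and PBRM1 is high in the NU7441 arrays alone.

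The lowest log2 fold changes under NU7441 were those of KDM1A and BRD7, and the highest among the members were those of EZH1 and KDM5B. The promoters of these 4 are shown because they are the ends of the range in each direction, as the 250 bases before the transcription start in the RefSeq table for GRCh38.p14, on the gene's own strand, with the start site just after the last base. Capitals mark exact matches, on either strand, to TTGGCGC or TTCCCGC (forms of the E2F site), TTTGAA (a cell-cycle homology element core), CCAAT (the CCAAT box) or GGGCGG (the GC box). Matches of TTCCCGC and GGGCGG can overlap.
KDM1A (chr1:23019218-23019467, plus strand): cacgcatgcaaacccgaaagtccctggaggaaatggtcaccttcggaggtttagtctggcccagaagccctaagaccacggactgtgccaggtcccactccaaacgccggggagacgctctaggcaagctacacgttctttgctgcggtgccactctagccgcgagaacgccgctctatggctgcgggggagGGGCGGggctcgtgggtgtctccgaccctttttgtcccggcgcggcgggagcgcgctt
BRD7 (chr16:50368989-50369238, minus strand): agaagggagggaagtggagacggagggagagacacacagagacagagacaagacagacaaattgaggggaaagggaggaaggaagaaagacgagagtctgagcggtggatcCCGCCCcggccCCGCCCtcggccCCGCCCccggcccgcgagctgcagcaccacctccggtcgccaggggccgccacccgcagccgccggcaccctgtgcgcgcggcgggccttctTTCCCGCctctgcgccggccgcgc
EZH1 (chr17:42745041-42745290, minus strand): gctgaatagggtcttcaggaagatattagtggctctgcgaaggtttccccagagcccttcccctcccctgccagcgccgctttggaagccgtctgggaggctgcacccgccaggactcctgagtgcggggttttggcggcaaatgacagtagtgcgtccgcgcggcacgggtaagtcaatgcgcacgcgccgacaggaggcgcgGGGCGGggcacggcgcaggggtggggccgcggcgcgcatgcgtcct
KDM5B (chr1:202808422-202808671, minus strand): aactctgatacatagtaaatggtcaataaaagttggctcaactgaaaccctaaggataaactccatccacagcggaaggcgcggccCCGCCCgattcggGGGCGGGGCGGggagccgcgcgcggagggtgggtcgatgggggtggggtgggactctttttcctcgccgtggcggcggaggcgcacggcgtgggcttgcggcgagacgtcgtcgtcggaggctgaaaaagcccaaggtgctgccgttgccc
Each of the 4 held the GC box, with 1 match in KDM1A, 3 in BRD7, 1 in EZH1 and 3 in KDM5B, of which 2 overlapped. BRD7 also held 1 match to TTCCCGC, and no other motif searched was matched in these windows.

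The GC box is common, being present in 42.3% of all 27305 promoters in the table, in 56% of 15842 promoters of protein-coding genes, and in 59.2% of the 76 members that had an entry. TTCCCGC was present in 7.89% of the members, against 7.44% of protein-coding promoters and 5.59% of all. TTGGCGC was present in 2.63% of the members, 3.51% of protein-coding promoters and 2.63% of all. CCAAT was present in 32.9% of the members, 34.5% of protein-coding promoters and 33% of all, and TTTGAA in 6.58%, 10.8% and 13.6% of the same sets. Of 11 members that fell under NU7441 with an entry 3 held TTCCCGC, and of 20 that rose 2 did. The GC box was held by 7 of the 11 and 14 of the 20, and the CCAAT box by 5 and 7. The cell-cycle homology element core was held by 1 and 0, and the other form of the E2F site by 0 and 0. Differences between members that fell and members that rose were not tested. All motif counts are letter matches, described without a claim of binding.

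The KDM demethylases held the lowest member and several of the highest. Of 18 demethylases 7 (38.9%) rose under NU7441, 1 (5.56%) fell and 10 did not pass. Over all genes 10.8% rose and 22.4% fell, and of genes at or above the median brightness 20.7% and 24%. These differences were not tested. After knockdown 0 of 18 passed. At an unadjusted p under 0.05 (limma) 3 were then higher and 1 lower, against 6.68% and 12.9% of all genes. KDM1A (LSD1), the flavin-dependent demethylase of H3K4 in the CoREST complex, had 48.7 and 140.4 intensity units in NU7441 arrays, 193 and 153 in knockdown arrays, and 347 and 358 in control arrays. Its groups did not overlap, with the 4 treated arrays all below the control arrays, but the 2 NU7441 arrays stood far apart. KDM1A fell 4.26-fold under NU7441 (-2.09 ± 0.39, adjusted p = 0.00534). The log2 fold change was -1.33 without NU7441 replicate 1 and -2.85 without NU7441 replicate 2. After knockdown it was -1.04 ± 0.39 (adjusted p = 0.200).

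KDM1B (LSD2), the paralog that acts within gene bodies, moved opposite to KDM1A. It had 188 and 183 intensity units in NU7441 arrays, 145 and 148 in knockdown arrays, and 93.6 and 83.4 in control arrays. The 3 groups stood in separate ranges, with NU7441 highest and control lowest. KDM1B rose 2.10-fold under NU7441 (1.07 ± 0.18, adjusted p = 0.00331), and knockdown against control gave 0.73 ± 0.18 (adjusted p = 0.0812), the highest log2 fold change of any member in that comparison.

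KDM5A, KDM5B and KDM5C, which remove methyl groups from H3K4, rose together under NU7441. KDM5B had 316 and 347 intensity units in NU7441 arrays, 197 and 188 in knockdown arrays, and 139 and 140.1 in control arrays. KDM5A had 276 and 259 in NU7441 arrays, 163 and 184 in knockdown arrays, and 131 and 119.9 in control arrays. For both genes NU7441 was highest, knockdown intermediate and control lowest, without overlap. KDM5B rose 2.37-fold (1.25 ± 0.15, adjusted p = 0.00104) and KDM5A 2.13-fold (1.09 ± 0.17, adjusted p = 0.00225). KDM5C had 159 and 168 in NU7441 arrays, 113 and 154 in knockdown arrays, and 110 and 87.6 in control arrays (0.74 ± 0.22, adjusted p = 0.0286).

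Of the 5 KDM4 genes, whose enzymes act on H3K9 and, for some of them, on H3K36, KDM4A and KDM4C rose. KDM4A had 113 and 152 intensity units in NU7441 arrays, 71.1 and 79.7 in knockdown arrays, and 62.2 and 67.6 in control arrays (1.02 ± 0.23, adjusted p = 0.0104 under NU7441). KDM4C had 157 and 142 in NU7441 arrays, 77.1 and 122 in knockdown arrays, and 77.7 and 69.2 in control arrays (1.02 ± 0.25, adjusted p = 0.0141). In each case both NU7441 arrays were above all others. KDM6B, a demethylase of H3K27, likewise rose, with 130 and 90.2 in NU7441 arrays, 56.5 and 55.1 in knockdown arrays, and 52.5 and 49.9 in control arrays (1.08 ± 0.24, adjusted p = 0.0111). KDM6A, its paralog, had 195 and 365 in NU7441 arrays, 253 and 248 in knockdown arrays, and 302 and 267 in control arrays, so that the NU7441 arrays spanned all others (-0.09 ± 0.25).

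Of the 13 members of the KMT and SETD series, 4 rose under NU7441, 0 fell and 9 did not pass (limma, with 0 lower at an unadjusted p under 0.05). Methyltransferases outside these series, such as SUV39H2, which fell, and PRMT2, which rose, are counted with the partner genes below. The 4 are 30.8% of this small group, against 20.7% of genes at or above the median brightness and 10.8% of all genes. Of all genes 22.4% were called lower, and 31.3% were lower at an unadjusted p under 0.05 (limma). These differences were not tested. KMT2C, which with KMT2D places monomethyl marks on H3K4 at enhancers, had 603 and 591 intensity units in NU7441 arrays, 353 and 385 in knockdown arrays, and 345 and 330.0 in control arrays. Both NU7441 arrays exceeded all others, and KMT2C rose (0.82 ± 0.12, adjusted p = 0.00183). KMT2D had 167 and 182 in NU7441 arrays, 109 and 133 in knockdown arrays, and 102 and 87.7 in control arrays (0.88 ± 0.20, adjusted p = 0.0107). SETD1A, a catalytic subunit of COMPASS that trimethylates H3K4, had 191 and 278 in NU7441 arrays, 161 and 162 in knockdown arrays, and 137 and 129 in control arrays (0.79 ± 0.20, adjusted p = 0.0173). SETD3, an actin histidine methyltransferase by its known activity, also rose (0.74 ± 0.16, adjusted p = 0.00925). Genes for writers and for erasers of H3K4 methylation were among those that rose under NU7441. KDM1A, another such eraser, fell, while its paralog KDM1B rose.

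The 3 measured genes of Polycomb repressive complex 2, the writer of H3K27 methylation, divided between the paralogous catalytic subunits. EZH1, the form prominent in resting cells, had 131 and 141 intensity units in NU7441 arrays, 87.6 and 82.9 in knockdown arrays, and 64.5 and 50.1 in control arrays. EZH2, the form prominent in dividing cells, had 195 and 208 in NU7441 arrays, 291 and 241 in knockdown arrays, and 320.1 and 350.1 in control arrays. Knockdown lay between NU7441 and control for both genes, in opposite order and without overlap. EZH1 rose 2.39-fold (1.26 ± 0.22, adjusted p = 0.00371) and EZH2 fell 1.66-fold under NU7441 (-0.73 ± 0.16, adjusted p = 0.00847). After knockdown EZH1 gave 0.58 ± 0.22 (adjusted p = 0.190) and EZH2 -0.34 ± 0.16 (adjusted p = 0.264).

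SUZ12, the scaffold subunit, had 392 and 396 intensity units in NU7441 arrays, 386 and 339 in knockdown arrays, and 544 and 495 in control arrays. All treated arrays lay below the controls, at -0.40 ± 0.13 under NU7441 (adjusted p = 0.037) and -0.52 ± 0.13 after knockdown (adjusted p = 0.0796). With arrays centred on their medians the NU7441 calls of EZH2 (-0.41) and SUZ12 (-0.08) were lost.

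Among 18 deacetylases 5 rose and 2 fell under NU7441, 27.8% and 11.1% of them against 10.8% and 22.4% of all genes. None passed after knockdown. At an unadjusted p under 0.05 (limma) 1 was then higher and 1 lower, against 6.68% and 12.9% of all genes. HDAC1 and HDAC2, class I enzymes that share the NuRD, Sin3 and CoREST complexes, moved apart. HDAC1 had 512 and 489 intensity units in NU7441 arrays, 363 and 352 in knockdown arrays, and 332 and 306 in control arrays. HDAC2 had 173 and 308 in NU7441 arrays, 423 and 353 in knockdown arrays, and 554 and 545 in control arrays. The groups of each gene did not overlap, and the order of the groups was opposite in the pair. HDAC1 rose (0.65 ± 0.12, adjusted p = 0.00526) and HDAC2 fell 2.38-fold under NU7441 (-1.25 ± 0.24, adjusted p = 0.00526). A second, dim probeset of HDAC2 disagreed, with 31.9 and 36.2 in NU7441 arrays, 42.4 and 43.2 in knockdown arrays, and 35.4 and 34.3 in control arrays.

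The other deacetylases past the threshold came from several classes. HDAC6, a mainly cytoplasmic tubulin deacetylase, had 104 and 77.3 intensity units in NU7441 arrays, 68.0 and 63.0 in knockdown arrays, and 46.4 and 50.4 in control arrays, in separate ranges (0.89 ± 0.24, adjusted p = 0.0202 under NU7441). HDAC9, a class IIa enzyme, fell at low intensity, with 24.6 and 20.8 in NU7441 arrays, 28.6 and 39.3 in knockdown arrays, and 41.9 and 45.1 in control arrays (-0.94 ± 0.24, adjusted p = 0.018), and its call was lost under quantile normalization and under median centring. Of the 7 sirtuins, which need NAD, 3 (42.9%) rose and 0 fell, against 10.8% and 22.4% of all genes. At an unadjusted p under 0.05 (limma) 0 were lower as well, against 31.3% of all genes. SIRT7, a nucleolar deacetylase, had 263 and 170 in NU7441 arrays, 180.0 and 185 in knockdown arrays, and 126 and 123 in control arrays (0.76 ± 0.22, adjusted p = 0.0256). For SIRT7 the NU7441 arrays straddled the knockdown arrays, and all 4 exceeded the controls. SIRT1, the nuclear sirtuin that acts on histones and p53, rose by 0.62 ± 0.19 (adjusted p = 0.032), and SIRT2, a mostly cytoplasmic one, by 0.68 ± 0.23 (adjusted p = 0.0436).

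The paralogs of some pairs went opposite ways under NU7441. Of 15 pairs listed, both genes were measured in 9. In EZH1 with EZH2, HDAC1 with HDAC2, and KDM1B with KDM1A 1 gene rose and the other fell. The second, dim HDAC2 probeset did not show that fall, and the EZH2 call was lost with arrays centred on their medians. In CHD3 with CHD4 and KMT2C with KMT2D both rose. In KAT2A with KAT2B and KDM6B with KDM6A 1 gene passed the test, and in ARID1A with ARID1B and DNMT3A with DNMT3B neither did.

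**Figure D3:**
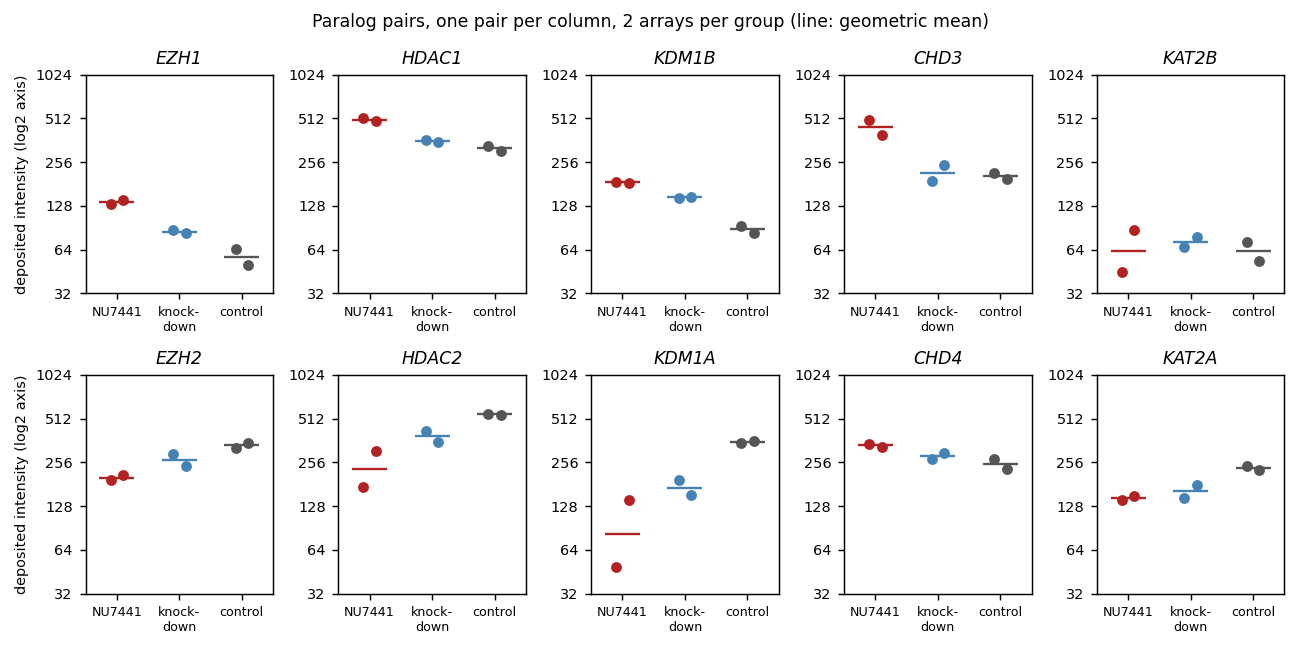
Deposited intensity (vertical log2 axis) on each of the 2 arrays of the NU7441, knockdown and control groups for 5 paralog pairs, 1 pair per column, with the geometric mean as a line. EZH1, HDAC1 and KDM1B are highest in the NU7441 arrays, where EZH2, HDAC2 and KDM1A are lowest, and CHD3 and CHD4 are both highest there; levels of different genes cannot be set against each other.

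Of the 10 CHD remodellers 4 rose and 3 fell under NU7441, 40% and 30% of them against 10.8% and 22.4% of all genes. None passed after knockdown. At an unadjusted p under 0.05 (limma) 0 were then higher and 1 lower, against 6.68% and 12.9% of all genes. CHD3, an ATPase of NuRD, had 500.0 and 393 intensity units in NU7441 arrays, 191 and 243 in knockdown arrays, and 214 and 195 in control arrays. CHD6, a motor of the same class as CHD7, CHD8 and CHD9, had 241 and 239.9 in NU7441 arrays, 127 and 146 in knockdown arrays, and 118 and 100.04 in control arrays. Both genes were high in the NU7441 arrays alone, while knockdown and control overlapped for CHD3. CHD3 rose 2.17-fold (1.12 ± 0.18, adjusted p = 0.00282) and CHD6 2.21-fold (1.14 ± 0.18, adjusted p = 0.00262).

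CHD8, known as a regulator of Wnt targets, had 194 and 182 intensity units in NU7441 arrays, 111 and 128 in knockdown arrays, and 102 and 109 in control arrays (0.83 ± 0.18, adjusted p = 0.00992). CHD4, the main ATPase of NuRD, had 345 and 326 in NU7441 arrays, 271 and 298 in knockdown arrays, and 269 and 232 in control arrays (0.42 ± 0.15, adjusted p = 0.0495), just inside the threshold and outside it after quantile normalization.

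For the 3 CHD genes that fell, the NU7441 arrays stood apart. CHD1, which binds methylated H3K4 and is lost in some prostate cancers, had 53.4 and 96.1 intensity units in NU7441 arrays, 79.3 and 78.6 in knockdown arrays, and 116 and 141 in control arrays (-0.84 ± 0.28, adjusted p = 0.0474). CHD7, the gene mutated in CHARGE syndrome, had 17.6 and 32.2 in NU7441 arrays, 44.2 and 45.5 in knockdown arrays, and 51.9 and 48.3 in control arrays (-1.07 ± 0.30, adjusted p = 0.0244). CHD9 had 25.8 and 49.7 in NU7441 arrays, 63.8 and 72.4 in knockdown arrays, and 78.7 and 69.2 in control arrays (-1.04 ± 0.32, adjusted p = 0.0319). NU7441 replicate 1 was the lowest array for all 3 genes. Without it CHD1 was at -0.42 and no longer called, CHD7 was at -0.64 and CHD9 at -0.57. The calls of all 3 were lost with arrays centred on their medians.

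Among DNA methylation genes DNMT1 alone of 6 passed, and it fell under NU7441. That is 16.7% of the group lower, against 22.4% of all genes. DNMT1, the maintenance methyltransferase that copies methylation after replication, had 213 and 173 intensity units in NU7441 arrays, 207 and 235 in knockdown arrays, and 411 and 359 in control arrays. All 4 treated arrays lay well below both controls and the treated groups overlapped. DNMT1 fell 2.00-fold under NU7441 (-1.002 ± 0.17, adjusted p = 0.00325), and knockdown against control gave -0.80 ± 0.17 (adjusted p = 0.0599). DNMT3A and DNMT3B, the de novo enzymes, gave 0.20 ± 0.35 and 0.14 ± 0.23 under NU7441.

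Of the 6 other ARID genes 0 rose and 2 (33.3%) fell under NU7441, against 10.8% and 22.4% of all genes. At an unadjusted p under 0.05 (limma) 2 were higher and 3 lower, against 14.6% and 31.3% of all genes. ARID3A, a DNA-binding protein known as an E2F partner, had 52.2 and 34.7 intensity units in NU7441 arrays, 70.9 and 62.5 in knockdown arrays, and 99.2 and 81.0 in control arrays, in separate ranges (-1.08 ± 0.27, adjusted p = 0.0154). ARID5A, known for binding the RNA of inflammatory genes, had 21.8 and 21.9 in NU7441 arrays, 31.0 and 24.2 in knockdown arrays, and 42.8 and 47.9 in control arrays, also in separate ranges (-1.05 ± 0.22, adjusted p = 0.00879). The call of ARID3A was lost with arrays centred on their medians.

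**Figure D4:**
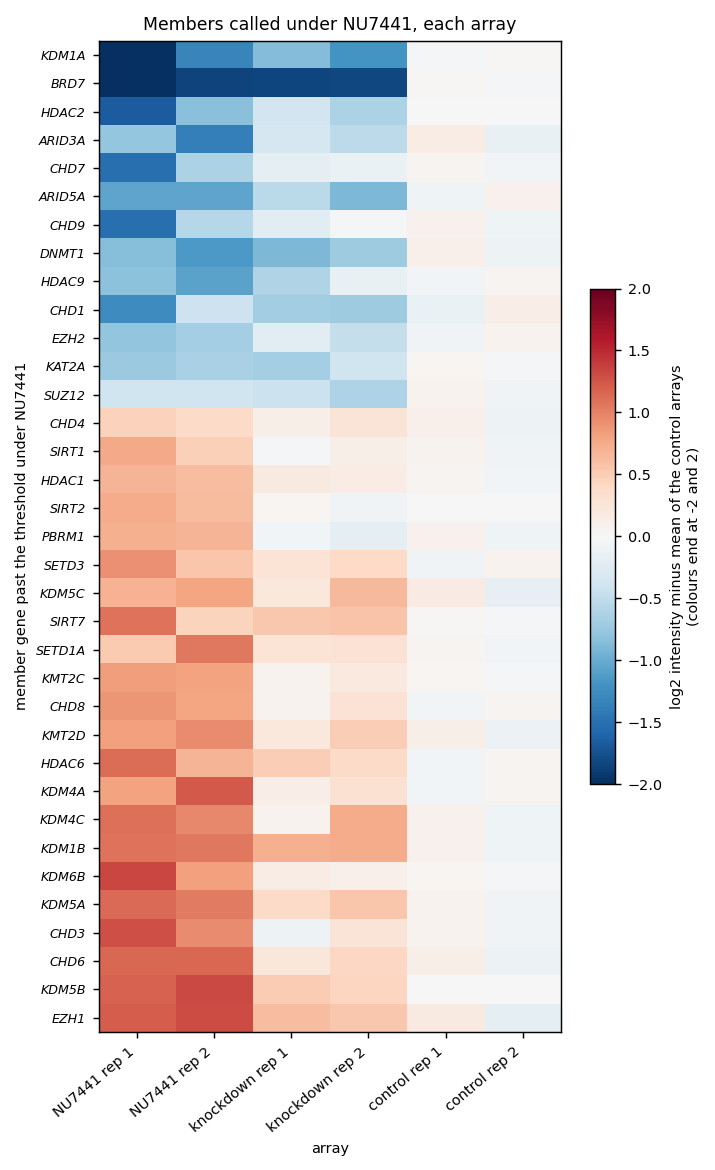
Log2 intensity minus the mean of the control arrays (colour, ending at -2 and 2) for the 35 members past the threshold under NU7441 (rows) on each of the 6 arrays (columns: NU7441, knockdown, control). In the lower rows the 22 genes that rose are red in both NU7441 arrays. BRD7 is deep blue in all 4 treated arrays and the deepest row in the knockdown arrays. SUZ12, DNMT1 and KAT2A are also blue in all 4, less deeply.

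In fits with 1 control array, which hold no spread between control arrays, fewer of all genes were called. Many of the 35 NU7441 calls were lost there too, and the cause was not tested. Leaving out control replicate 1 kept 12 of them and leaving out control replicate 2 kept 6, namely BRD7, CHD3, DNMT1, KDM5A, KDM5B and KMT2C. A fit with 1 NU7441 array holds no spread between NU7441 arrays, so a call kept in it is no test of that call. CHD1 was no longer called without NU7441 replicate 1, the array with the most values at the floor. Of the 13 genes that fell, 10 had their lower NU7441 value in that replicate, and of the 22 that rose, 16 had their higher value there. The calls of BRD7, CHD3, KDM5A, KDM5B and KMT2C held in all 14 alternatives, and 0 of the 35 changed sign in any. When each array was centred on its median, 35 members rose and 5 fell, so that 87.5% of calls were rises against 62.9% as measured; the same setting gave 19.8% of all genes higher and 9.73% lower.

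Knockdown differed from NU7441 in 9 members, of which 1 was higher and 8 lower, against 5.83% and 2.84% of all genes. None of these 9 calls held when either knockdown array was left out, which left 0 members higher and 0 lower. Over all genes, 4 were then higher and 3 lower without knockdown replicate 1, and 0 each way without knockdown replicate 2. The 8 lower were PBRM1 (above), CHD3 (-1.04 ± 0.18, adjusted p = 0.0115), KDM6B (-0.96 ± 0.24, adjusted p = 0.0433), CHD6 (-0.82 ± 0.18, adjusted p = 0.0271), KDM5B (-0.78 ± 0.15, adjusted p = 0.0179), KMT2C (-0.69 ± 0.12, adjusted p = 0.0109), KDM5A (-0.63 ± 0.17, adjusted p = 0.048) and HDAC1 (-0.49 ± 0.12, adjusted p = 0.0409). All of them were genes that rose under NU7441. The member that was higher was HDAC4, a class IIa deacetylase, with 39.4 and 33.2 intensity units in knockdown arrays, 17.5 and 22.3 in NU7441 arrays, and 25.3 and 27.9 in control arrays (0.87 ± 0.22, adjusted p = 0.0384). Its values lay near the floor of 16, its call was lost in most alternatives, and its second probeset did not show the order, with 21.8 and 17.8 in knockdown arrays against 23.0 and 26.1 in NU7441 arrays. For KDM1A the difference of 1.05 ± 0.39 did not pass (adjusted p = 0.120).

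Whether knockdown moved members other than BRD7 depended on the fit. The fit over all arrays lends the wider spread of NU7441 arrays to this comparison. With the knockdown and control arrays alone in the fit, 7 members rose and 14 fell, 8.05% and 16.1% of the members against 6.89% and 12.3% of all genes. In that fit BRD7 stood at -1.83 ± 0.11 (adjusted p = 4.67e-08), KDM1A at -1.04 ± 0.13 (adjusted p = 0.000108), DNMT1 at -0.80 ± 0.12 (adjusted p = 0.000401) and KDM1B at 0.73 ± 0.14 (adjusted p = 0.00301). The other 11 lower genes were HDAC7, ARID4B, ARID5A, BRD8, CHD1, DNMT3L, KDM3B, BRD2, KAT2A, SUZ12 and HDAC2, between -0.94 and -0.51, and the other higher ones were SETD3, KDM5A, KDM5B, SIRT7, EZH1 and TET2, between 0.33 and 0.60.

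The partner genes of these enzymes, from a list of 152 subunits and enzymes outside the symbol pattern of which 112 were measured, moved in both directions as well. Under NU7441 21 rose and 32 fell, which is 18.8% and 28.6% of them, near the 20.7% and 24% of genes at or above the median brightness (10.8% and 22.4% of all genes). Their median log2 fold change was -0.14. After knockdown 0 passed (limma; 5 higher and 13 lower at an unadjusted p under 0.05, against 6.68% and 12.9% of all genes). Of 11 SWI/SNF partners 1 rose and 5 fell under NU7441, 9.09% and 45.5% of them against 10.8% and 22.4% of all genes. BICRA, a subunit of the non-canonical BAF complex, had 17.8 and 26.0 intensity units in NU7441 arrays, 47.3 and 58.9 in knockdown arrays, and 76.4 and 75.3 in control arrays (-1.82 ± 0.27, adjusted p = 0.00202). Its 3 groups did not overlap, with NU7441 near the floor.

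Of 19 Polycomb partners 2 rose and 5 fell under NU7441, 10.5% and 26.3% of them against 10.8% and 22.4% of all genes. CBX7, a chromodomain reader of H3K27 methylation, had 76.7 and 56.7 intensity units in NU7441 arrays, 252 and 216 in knockdown arrays, and 328 and 326 in control arrays. The NU7441 arrays lay far below the rest, and CBX7 fell 4.95-fold (-2.31 ± 0.20, adjusted p = 2.97e-04), the lowest value among the partners. PCGF3, a subunit of a variant Polycomb complex, rose by 0.90 ± 0.19 (adjusted p = 0.00871).

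Among 35 other writers 4 rose and 10 fell under NU7441, 11.4% and 28.6% of them against 10.8% and 22.4% of all genes. HAT1, which acetylates newly made histone H4, had 51.8 and 340 intensity units in NU7441 arrays, 460.2 and 424 in knockdown arrays, and 621 and 655 in control arrays (-2.26 ± 0.64, adjusted p = 0.0247), and its NU7441 arrays differed more from each other than knockdown did from control. SUV39H2, a methyltransferase of H3K9, fell by 1.80 ± 0.42 on the log2 scale (adjusted p = 0.0117), with 30.4 and 93.5 in NU7441 arrays, 160.3 and 156 in knockdown arrays, and 180.2 and 193 in control arrays. PRMT2, an arginine methyltransferase, rose by 1.32 ± 0.21 (adjusted p = 0.00259).

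Of 24 ISWI and INO80 family partners and other remodelling motors of the SNF2 type, 7 rose and 6 fell under NU7441. That is 29.2% and 25% of them, against 10.8% and 22.4% of all genes. ATRX, a motor that deposits histone variant H3.3, rose (1.06 ± 0.14, adjusted p = 0.00131), with 655 and 569 intensity units in NU7441 arrays, 352 and 295 in knockdown arrays, and 289.7 and 296 in control arrays. DMAP1, a TIP60 subunit, rose by 1.00 ± 0.22 (adjusted p = 0.00975), while EP400, the ATPase of that complex, fell by 1.64 ± 0.40 on the log2 scale (adjusted p = 0.0148). Of 15 NuRD, Sin3 and CoREST partners 5 rose and 3 fell, 33.3% and 20% against the same 10.8% and 22.4%. MTA1 of NuRD rose by 1.07 ± 0.20 (adjusted p = 0.00511). Of 10 MLL/COMPASS partners 2 rose and 3 fell, 20% and 30% against 10.8% and 22.4% of all genes.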

How the data were processed

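RNA from 6 C4-2 cultures was extracted with Trizol, amplified to cDNA, labelled with biotin and hybridised to Affymetrix arrays, per the labels' protocols. Each probeset and array has 1 linear intensity, as deposited by the authors, and none is below 16. Summarisation, normalization and genome build: not given in the sources used here, so that no probeset coordinates are printed, and 0 columns belonged to no sample. Here log2 of the deposited intensity was taken with no further scaling. A single symbol was available for 15835 of 44629 probesets, several symbols for 0, and none here for 28794; symbols came from the platform annotation, and all gene identifiers were found in the RefSeq GRCh38.p14 gene table. For the 651 genes with several probesets the brightest was used.

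All 3 comparisons came from 1 linear model over 6 arrays (limma 3.58.1 in R 4.3.3, 3 residual degrees of freedom, moderation with a mean-variance trend, two-sided, Benjamini-Hochberg over 14812 genes, threshold 0.05). Values after ± are moderated standard errors (n = 2 arrays per group), with a median of 0.23 over members. The number of arrays limits the precision. The procedure was tested on simulated data, in which all 6 arrays had the same spread and no floor was set. The simulation therefore does not check the fit under the unequal spread of these groups.

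The members and lists were chosen with earlier results of these data known. The genes named were BRD7, members past the threshold after knockdown, the 15 highest and 15 lowest under NU7441, the extremes of each role group, 8 each way for knockdown against NU7441, listed paralog pairs, and the 5 highest and 5 lowest partners; other members past the threshold, BRD2, BRD8, BRD3 and the genes of the fit on knockdown and control alone were named after their values were seen. A KDM gene that fits the symbol pattern is not reported here. No protein sequences are shown.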

Additional observations from a re-analysis of the deposited data

How the results depend on the processing

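With 2 arrays per group, 3 residual degrees of freedom and intensities crowded near 16 in NU7441 replicate 1, small changes of dim genes were not detectable, and a call missing here shows no lack of change. All groups share 1 spread in the fit, which was wider among the NU7441 arrays than among the others. Of the 45 named results past the threshold, 474 of their recomputed values kept direction and side of the threshold, 152 lost the threshold and 0 reversed. Of the losses 36 came without control replicate 2, 30 without control replicate 1 and 18 without each knockdown array. Counts of members moved as follows, and the cause was not tested unless the setting's construction shows it. Under NU7441, leaving out 1 array gave 4 to 33 higher and 2 to 21 lower, and centring arrays on their medians gave 35 higher and 5 lower. After knockdown, leave-one-out gave 0 to 7 higher and 0 to 14 lower, the compared groups alone gave 7 and 14, unadjusted p under 0.05 gave 5 and 11, and quantile normalization gave 2 lower. For knockdown against NU7441, leave-one-out gave 0 to 15 higher and 0 to 22 lower. There the 1 higher call became 0 under quantile normalization, median centring, dim genes left out, the offset of 16 taken off, the compared groups alone, the mean of a gene's probesets and the replicate block. The 8 lower became 15 under centring, 5 without the mean-variance trend, 4 in the fit of the compared groups and 5 under the replicate block, and unadjusted p gave 10 higher and 22 lower.

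Replicate numbers did not pair the arrays (correlations of deviations between same-numbered arrays -0.01, -0.01 and -0.07), and with the number as a replicate block 20 members rose and 13 fell under NU7441 and 0 and 1 after knockdown.

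Reversals were limited to results that passed no test as measured, and where 1 array left out caused them the leave-one-out range is given. Under NU7441 ARID1B was 0.085 with quantile normalization, 0.12 with centring and -0.53 to 0.14 with 1 array left out. BRD2 was 0.14 with centring and -0.42 to 0.064 with 1 array left out. DNMT3A ranged over -0.34 to 0.75. KAT2B was -0.00921 with the offset of 16 removed and ranged over -0.46 to 0.49. KDM6A was 0.23 with centring and ranged over -0.54 to 0.36, the upper value past the threshold without NU7441 replicate 1. KMT5A was 0.052 with centring. After knockdown the leave-one-out ranges were -0.0076 to 0.44 for ARID1B, -0.057 to 0.45 for ARID3B, -0.10 to 0.25 for CHD3, -0.0017 to 0.43 for KAT2B and -0.21 to 0.20 for DNMT3A. DNMT3A was also 0.14 with quantile normalization and with centring, and 0.0067 with the offset removed. BRD7, knockdown against NU7441, was -0.069 with centring.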
